A study of Mus musculus with 6 samples.

Results

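The miR-30 family is a group of microRNAs cut from 6 hairpin genes in the mouse, whose 5p strands share the same seed, the stretch of bases 2 to 8 that pairs with target messenger RNAs. Its 10 members here are both strands of miR-30a, miR-30b, miR-30c, miR-30d and miR-30e, found by name among the 1915 mouse microRNA names of the count table, of which 919 had a count in at least 1 library. They were compared between 3 primary tumors and 3 oviducts of mice by small RNA sequencing. The tumors carried the genotype Dicer1ko/D1693N, a knocked-out Dicer1 allele beside the D1693N allele. The oviducts carried Dicer1+/D1693N, so D1693N was present in every library and the groups differed in the other allele. Neither group received a treatment, and the labels give oviduct as the tissue of both. The design text of the series names 4 tumors and 5 oviducts, and 3 of each were used here. Ages, strains, the cells in which the knockout arose and whether each sample was its own animal are not in the labels. The p-values therefore cover only sample-to-sample spread, part of which could be technical.

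A microRNA hairpin is released in the nucleus and then cut by Dicer, whose RNase IIIb domain cuts the 5p side and whose RNase IIIa domain cuts the 3p side. D1693N is a change of a metal-binding residue of the RNase IIIb domain. For most hairpins 1 strand is loaded into Argonaute as the guide and the other is mostly degraded, and for the miR-30 family the 5p strand is the usual guide. The family is abundant in many epithelia and is known for repressing epithelial-to-mesenchymal transition genes such as Snai1, and for targets in autophagy and Notch signalling. Target messenger RNAs are not measured by this assay.

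The hairpins lie as 3 neighbouring pairs in GRCm38. Mir30a (chromosome 1, 23272269 to 23272339, plus strand) lies outside annotated genes, 19432 bases before Mir30c-2 (23291701 to 23291784), which overlaps an exon of the long noncoding RNA Gm27028. Mir30e (chromosome 4, 120772606 to 120772697, minus strand) and Mir30c-1 (120769534 to 120769622) lie 3072 bases apart in an intron of Nfyc, a subunit gene of the transcription factor NF-Y. Mir30b (chromosome 15, 68337415 to 68337510, minus strand) and Mir30d (68341208 to 68341289) lie 3793 bases apart and overlap exons of noncoding transcripts. Both miR-30c genes give the same 5p strand, so its counts cannot be split between them. Their 3p strands differ and are counted by copy.

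Of the 10 members, 6 matched a mature sequence in RefSeq (GRCm38.p6): both strands of miR-30a and miR-30e, miR-30c-5p and miR-30c-1-3p. These are shown, with miR-30c-2-3p of the other copy, because the results differ by strand and the strands differ in their seeds. Each is written 5′ to 3′ with the seed in capitals.
miR-30a-5p: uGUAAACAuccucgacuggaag
miR-30e-5p: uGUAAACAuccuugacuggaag
miR-30c-5p: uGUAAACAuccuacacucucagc
miR-30a-3p: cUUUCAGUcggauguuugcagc
miR-30e-3p: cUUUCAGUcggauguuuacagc
miR-30c-1-3p: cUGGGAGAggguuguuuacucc
miR-30c-2-3p: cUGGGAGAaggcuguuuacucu
The 3 5p strands have the same seed, and the 3p strands fall into 2 seed groups. Counted from the 5′ end, miR-30e-5p differs from miR-30a-5p at 1 of 22 positions (C13U), and miR-30e-3p differs from miR-30a-3p at 1 of 22 (G18A). Reads with an error at these positions could have been assigned to the wrong name, and how such reads were counted is not stated. The positions of the strands are shown in 2 hairpins, with the annotated 5p and then 3p strand in capitals.
Mir30a, chr1:23272269-23272339, plus strand: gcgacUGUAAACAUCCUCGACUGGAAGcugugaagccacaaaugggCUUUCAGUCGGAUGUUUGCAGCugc
Mir30e, chr4:120772606-120772697, minus strand: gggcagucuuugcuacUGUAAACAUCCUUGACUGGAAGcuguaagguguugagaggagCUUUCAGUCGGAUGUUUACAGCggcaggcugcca
Among the 1623 mouse names with a RefSeq mature sequence, the 5p seed was otherwise found in miR-384-5p alone, which had 0 counts in every library. The name miR-30f, annotated on the strand opposite Mir30e, also had 0 counts in every library.

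The depth in mouse microRNA counts was 154002 to 272167 per tumor library and 297039 to 580390 per oviduct library. Counts were scaled to CPM, a common library size, with trimmed-mean (TMM) factors, and 3 counts corresponded to between 12.9 and 15.1 CPM in the tumors and between 5.48 and 11.9 CPM in the oviducts. A strand outside the family, miR-143-3p, took 60.9%, 27.7% and 13.9% of the counts of tumors 1, 2 and 3, and 44.1%, 45.8% and 47.2% of those of oviducts 1, 2 and 3. The summed level of 6 microRNAs of multiciliated cells was between 422 and 1209 CPM in the tumors and between 14867 and 21618 CPM in the oviducts, and 3 of the 5 tested were lower. These cells carry the motile cilia of the oviduct lining, and the names listed for them belong to miR-34b, miR-34c and miR-449. The sum of 6 epithelial microRNAs was between 3933 and 7032 CPM in the tumors and between 7048 and 12090 CPM in the oviducts, with 1 of 6 lower. That of 3 smooth muscle and fibroblast strands was between 94621 and 835405 CPM in the tumors and between 489628 and 557783 CPM in the oviducts, with 2 of 3 lower. Nearly all of this sum was miR-143-3p, which was not called (means of 379870 CPM in the tumors and 518883 CPM in the oviducts). The 2 lower strands were those of miR-145a. The sum of 2 endothelial strands was between 15198 and 20196 CPM in the tumors and between 7146 and 9548 CPM in the oviducts, and both were higher. The levels of 5 leukocyte strands, which did not pass the test, summed to between 743 and 4997 CPM in the tumors and to between 1091 and 1765 CPM in the oviducts. Of 2 red-cell names, 1 was tested and was higher, and they summed to between 155 and 1113 CPM in the tumors and to between 141 and 184 CPM in the oviducts. None of these markers was at 0 in either group, and their part in the results below was not tested. In whole tissue, fewer cells of a type and less RNA per cell cannot be told apart. The names of the deposited columns also carried a tag, of a meaning not stated, that differed between the groups and not within them, so tumor state, genotype and whatever it marks cannot be told apart.

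The first comparison was of the guide strands. The 5p strands of miR-30a, miR-30c, miR-30d and miR-30e were 2.23-fold to 3.03-fold lower in the tumors, while miR-30b-5p did not pass the test. With TMM scaling 4 of 5 fell, where 48.4% of all 95 tested 5p names fell. The same 4 had groups that did not overlap, where 55.8% of the tested 5p names did so in that direction. All 10 members passed the filter on low counts, and 8 of them were called in 1 direction or the other, where 52.4% of all tested names were. Among these 8, miR-30b-3p and miR-30c-1-3p passed the filter through the tumors alone, where they are high. The count of 8 is therefore a description and is not read against that share. The 5 members had a median log2 fold change (tumor over oviduct) of -1.43, against -1.04 for all tested 5p names. Tests of single strands are edgeR's two-sided quasi-likelihood test with Benjamini-Hochberg adjustment over all 227 tested names and a threshold of 0.05. The 4 falls depended on the scaling. With library totals alone edgeR called 0 of 5 5p members lower, with 1 at an unadjusted p under 0.05 and log2 changes between -1.10 and 0.01, while DESeq2 with its own size factors called 4, and with TMM factors from 3p names alone all 5 were. The median of all tested names was 0.20 with TMM, 0.65 with library totals alone and -0.73 with factors from 3p names, so the members moved with that shift.

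**Figure D1:**
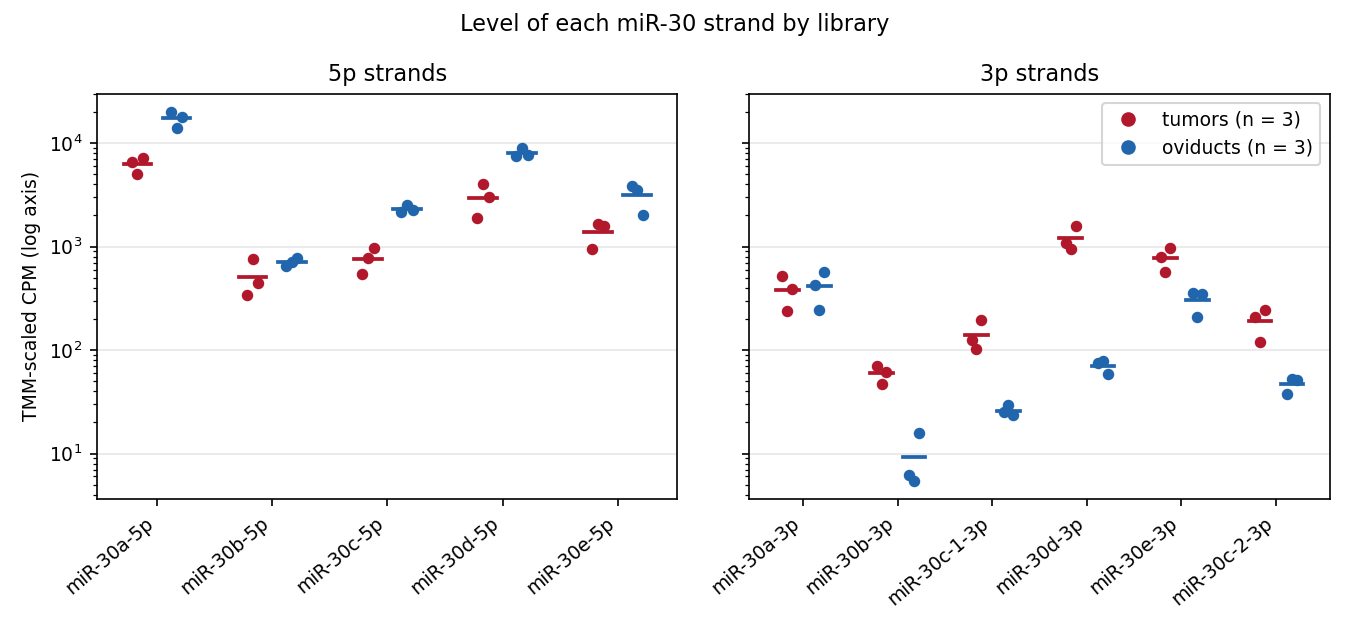
Level of each strand as TMM-scaled CPM on a log axis, with 1 point per library and a bar at the group mean, tumors in red left of oviducts in blue (n = 3 each). The 5p strands of miR-30a, miR-30c, miR-30d and miR-30e lie lower in every tumor than in any oviduct, and every 3p strand except miR-30a-3p lies higher.

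The most abundant member, miR-30a-5p (listed as mmu-miR-30a-5p), had 6567, 4976 and 7210 CPM in tumors 1, 2 and 3, against 20000, 14088 and 18025 CPM in oviducts 1, 2 and 3. The groups did not overlap, and the fall was 2.78-fold (log2 -1.47, SE 0.29, edgeR adjusted p = 0.00186). It ranked 16th to 20th among the mouse names of the tumors and 8th or 9th among those of the oviducts. The next, miR-30d-5p (mmu-miR-30d-5p), had 1883, 4040 and 2981 CPM in the tumors and 7496, 8913 and 7641 CPM in the oviducts. Tumor 2 was the highest of the tumors and still below every oviduct (log2 -1.43, SE 0.34, edgeR adjusted p = 0.00556).

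The strand shared by both miR-30c genes, miR-30c-5p, had 539, 781 and 972 CPM in the tumors and 2180, 2503 and 2265 CPM in the oviducts. This was the largest fall of a 5p member (log2 -1.60, SE 0.33, edgeR adjusted p = 0.00264) under TMM scaling, and differences among the 5p members' falls were not tested. For miR-30e-5p the levels were 952, 1649 and 1591 CPM in the tumors and 3860, 3483 and 2004 CPM in the oviducts. Oviduct 3 lay near the tumors, but the groups did not overlap (log2 -1.16, SE 0.38, edgeR adjusted p = 0.0276). Leaving out oviduct 1 or oviduct 2 ended the call, with an edgeR adjusted p of 0.0551 and of 0.0664.

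The least abundant guide strand, miR-30b-5p, had 337, 751 and 448 CPM in the tumors and 655, 716 and 775 CPM in the oviducts. Tumor 2 lay within the oviduct range, and the difference did not pass the test (log2 -0.48, SE 0.35, edgeR adjusted p = 0.273). Its direction turned with library totals alone (log2 0.01), and with TMM factors from 3p names it was called lower (log2 -1.34, edgeR adjusted p = 0.0147).

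Summed over the 5 guide strands, the level of the shared seed was 10278, 12197 and 13202 CPM in tumors 1, 2 and 3 and 34190, 29703 and 30710 CPM in oviducts 1, 2 and 3. The mean was 11892 ± 1486 CPM in the tumors and 31535 ± 2355 CPM in the oviducts (SD, n = 3 each), a ratio of 0.377, and the groups did not overlap. No test was made on sums over the members. In raw counts these sums were 2041, 2841 and 3003 in the tumors and 10965, 16272 and 7769 in the oviducts. The log2 ratio of the mean levels was -1.41 with TMM, -0.95 with library totals alone and -2.30 with TMM factors from 3p names.

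The make-up of this 5p pool overlapped between the groups for 4 of its 5 strands. The largest part, miR-30a-5p, held 53.1% ± 11.6 of it in the tumors and 54.9% ± 6.45 in the oviducts (SD, n = 3 each). The part of miR-30d-5p was 24.7% ± 7.62 in the tumors and 25.6% ± 4.09 in the oviducts. For miR-30e-5p it was 11.6% ± 2.16 in the tumors and 9.85% ± 2.88 in the oviducts, and for miR-30c-5p 6.34% ± 1.06 in the tumors and 7.39% ± 1.03 in the oviducts. These 4 shares overlapped between the groups. Only the share of miR-30b-5p did not overlap, at 3.28%, 6.16% and 3.40% in the tumors and 1.92%, 2.41% and 2.52% in the oviducts. Tumor 2 stood apart within its group, with the lowest share of miR-30a-5p (40.8%) and the highest of miR-30d-5p (33.1%) of the 6 libraries. Oviduct 2 had the lowest share of miR-30a-5p among the oviducts (47.4%). Shares within the pool need no scaling between libraries.

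The second comparison was of the passenger strands. The 3p strands of miR-30b, miR-30c-1, miR-30d and miR-30e were between 2.55-fold and 16.7-fold higher in the tumors, and miR-30a-3p did not pass the test. Of the 5 members 4 rose, where 41.8% of all 110 tested 3p names rose. The same 4 had groups that did not overlap, where 43.6% of the tested 3p names did so in that direction. Of these 4, miR-30b-3p and miR-30c-1-3p were under the low-count filter (35.1 CPM before TMM scaling) in every oviduct and passed it through the tumors alone, where they are high. Strands that pass in this way had to be higher in the tumors, so the count of 4 is a description of the strands tested and is not read against the share of all names. Of the 3 members over the filter in every library, miR-30d-3p and miR-30e-3p rose and miR-30a-3p did not pass the test. With library totals alone the same number, 4, were called higher, and with TMM factors from 3p names alone 3 were, miR-30e-3p losing its call.

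The largest rise of the family was that of miR-30d-3p. As mmu-miR-30d-3p in the table, it had 1083, 945 and 1574 CPM in tumors 1, 2 and 3 and 74.8, 78.5 and 59.3 CPM in oviducts 1, 2 and 3. The lowest tumor was thus far above the highest oviduct, and the rise was 16.7-fold (log2 4.06, SE 0.37, edgeR adjusted p = 2.47e-05). Its raw counts were 215, 220 and 358 in the tumors and 24, 43 and 15 in the oviducts, so it rose in raw counts too although the tumor libraries were smaller. Its log2 change lay between 3.14 and 4.52 in the other scalings, filters and tests.

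The 3p strand of miR-30b was near the limit of detection in the oviducts, with 70.5, 47.2 and 61.5 CPM in the tumors and 6.24, 5.48 and 15.8 CPM in the oviducts (log2 2.75, SE 0.51, edgeR adjusted p = 0.00147). It rests on 39 counts over the tumors (exact Poisson 95% interval 27.7 to 53.3) and 9 counts over the oviducts (4.12 to 17.1). For miR-30c-1-3p the levels were 126, 103 and 193 CPM in the tumors and 24.9, 29.2 and 23.7 CPM in the oviducts (log2 2.41, SE 0.51, edgeR adjusted p = 0.00307). Every tumor was above every oviduct for both strands. The counting intervals leave out the spread between libraries.

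The 3p strand of the other miR-30c gene, miR-30c-2-3p, is not among the 10 members and is given because it comes from another chromosome. It had 206, 120 and 246 CPM in the tumors and 37.4, 52.9 and 51.4 CPM in the oviducts, and it rose as well (log2 2.00, SE 0.52, edgeR adjusted p = 0.00886). That call was lost without any 1 of the oviducts (edgeR adjusted p = 0.117, 0.0537 and 0.0727 without oviducts 1, 2 and 3) and with TMM factors from 3p names. Of the counts of both miR-30c 3p strands it held 57.3% ± 4.29 in the tumors and 64.3% ± 4.21 in the oviducts (SD, n = 3 each), and these shares overlapped. The 2 copies thus gave 3p counts in proportions that did not separate the groups.

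The 3p strands of miR-30e and miR-30a share a seed and differ by G18A. For miR-30e-3p the levels were 791, 562 and 963 CPM in the tumors and 352, 210 and 348 CPM in the oviducts (log2 1.35, SE 0.36, edgeR adjusted p = 0.00912). The groups did not overlap, but the call was lost without any 1 of the oviducts (edgeR adjusted p = 0.0983, 0.0652 and 0.0932 without oviducts 1, 2 and 3). Testing every name with no low-count filter (edgeR adjusted p = 0.0826), or those averaging 10 CPM or more (0.0625), ended it too, and both choices also change the TMM factors. For miR-30a-3p the levels were 519, 240 and 387 CPM in the tumors and 424, 243 and 573 CPM in the oviducts. These groups overlapped fully (log2 -0.11, SE 0.42, edgeR adjusted p = 0.841), and the direction turned without tumor 2 (log2 0.18), with upper-quartile factors (0.04) and with library totals alone (0.24). Of the counts of these 2 strands miR-30a-3p held 32.7% ± 5.99 in the tumors and 56.8% ± 4.71 in the oviducts, and these shares, which need no scaling, did not overlap.

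**Figure D2:**
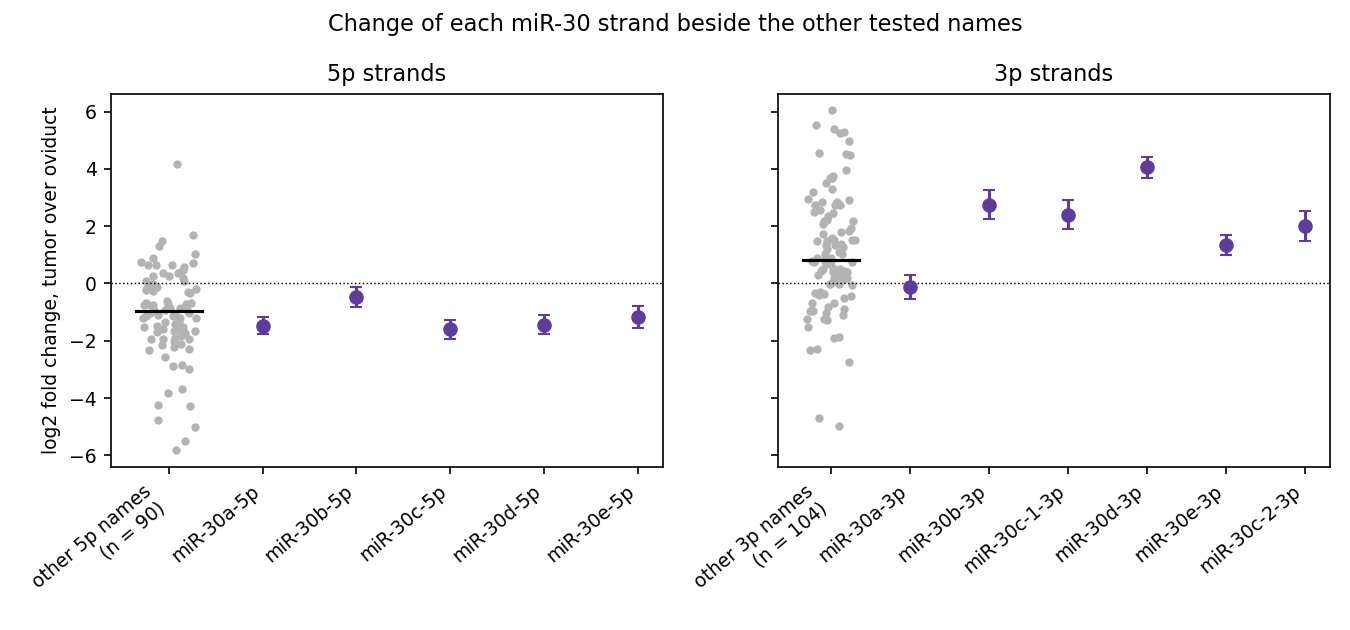
Log2 fold change (tumor over oviduct) of each miR-30 strand with its standard error from edgeR, beside the other tested names of the same arm (grey points, with a black bar at their median), 90 on the 5p side and 104 on the 3p side. The 5p members lie between -1.60 and -0.48, and the 3p members between -0.11 for miR-30a-3p and 4.06 for miR-30d-3p.

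The summed level of the 5 3p members was 2588, 1898 and 3179 CPM in the tumors and 882, 566 and 1020 CPM in the oviducts, with means of 2555 ± 641 CPM in the tumors and 823 ± 233 CPM in the oviducts (SD, n = 3 each). The groups did not overlap, and the tumor mean was 3.11-fold the oviduct mean. The 3p sum was higher by 1732 CPM in the tumors while the 5p sum was lower by 19642 CPM, so the rise of the 3p strands was small beside the fall of the 5p strands on this scale. In the 3p pool the leading strand was a different one in each group. The part of miR-30d-3p was 47.0% ± 4.51 in the tumors and 9.39% ± 4.10 in the oviducts, and that of miR-30a-3p 15.0% ± 4.41 in the tumors and 49.1% ± 6.71 in the oviducts. The part of miR-30e-3p was 30.2% ± 0.468 in the tumors and 37.0% ± 2.91 in the oviducts. The shares of these 3 strands and of miR-30b-3p did not overlap between the groups.

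**Figure D3:**
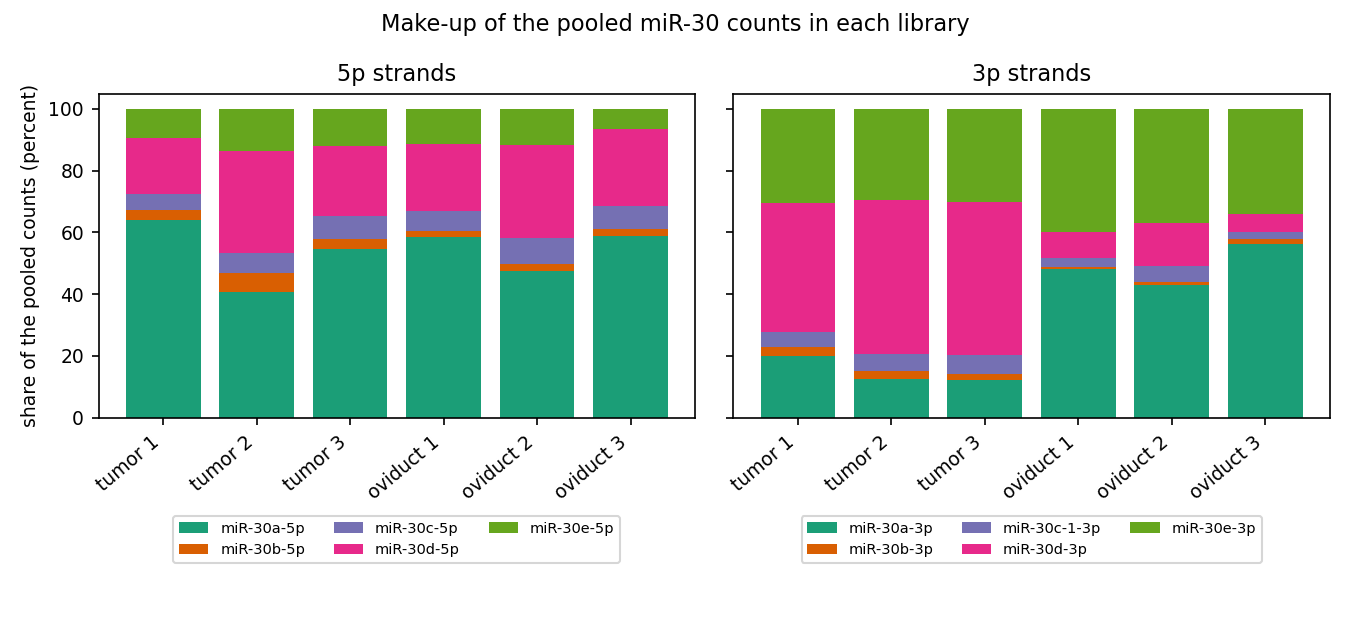
Share of each member in the pooled 5p counts (left) and pooled 3p counts (right) of every library, in percent, tumors left of oviducts. The 5p pools of both groups are led by miR-30a-5p, while the 3p pool is led by miR-30d-3p in every tumor and by miR-30a-3p in every oviduct.

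The third comparison was of the strands within each hairpin, as a log2 ratio of 5p over 3p counts in each library with 0.5 added to both, with the 3p counts of both miR-30c copies pooled. This ratio needs no scaling between libraries. It fell in miR-30b, miR-30c, miR-30d and miR-30e and did not pass the test in miR-30a (limma, Benjamini-Hochberg adjustment over 142 hairpins). Of the 5 hairpins 4 fell, where 47.2% of all tested hairpins fell. The family's median change was -3.23, against -1.53 for all tested hairpins. In each of the 5 the highest tumor ratio was below the lowest oviduct ratio, where 51.4% of all tested hairpins had such ratios. All tested hairpins include some with almost no 5p counts, whose ratio had little room to fall. An example is miR-103, with 0 5p counts in both groups and a log2 change of -0.07. Shares and medians for hairpins led by their 5p strand were not computed apart. Beside the family's -3.23, the median change was -2.14 in let-7 and miR-98 and -4.05 in miR-26.

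The largest change was that of miR-30d, whose log2 ratio was 0.80, 2.09 and 0.92 in tumors 1, 2 and 3 and 6.62, 6.81 and 6.96 in oviducts 1, 2 and 3. Its 5p strand took 70.0% ± 9.62 of the hairpin's counts in the tumors and 99.1% ± 0.109 in the oviducts (SD, n = 3 each). The ratio was 46.1-fold lower in the tumors (log2 -5.53, SE 0.60, limma adjusted p = 4.03e-05), and its fall had rank 13 among the 142 hairpins. Its pooled 5p and 3p counts were 1993 and 793 in the tumors and 9220 and 82 in the oviducts. In miR-30c the 5p share was 61.8%, 77.8% and 68.8% in the tumors and 97.2%, 96.8% and 96.8% in the oviducts (log2 ratio change -3.75, SE 0.58, limma adjusted p = 0.000379). The value with the 3p strand of miR-30c-1 alone was -3.97.

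In miR-30b the 5p share was 82.7%, 94.1% and 87.9% in the tumors and 99.1%, 99.2% and 98.0% in the oviducts (log2 ratio change -3.23, SE 0.67, limma adjusted p = 0.00261), while miR-30b-5p itself was not called. In miR-30e it was 54.6%, 74.6% and 62.3% in the tumors and 91.6%, 94.3% and 85.2% in the oviducts (log2 ratio change -2.49, SE 0.65, limma adjusted p = 0.0102). In miR-30a it was 92.7%, 95.4% and 94.9% in the tumors and 97.9%, 98.3% and 96.9% in the oviducts. Its change of -1.38 (SE 0.58) narrowly missed the threshold (limma adjusted p = 0.0705) and passed it with a pseudocount of 1 (adjusted p = 0.0493) or 5 (0.0165), with a minimum mean total of 100 counts (0.0464) and in an edgeR interaction of arm and group (0.00703). In each of the 5 hairpins the 5p strand had more counts than the 3p strand in every library, and tumor 2 had the highest 5p share of the tumors.

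**Figure D4:**
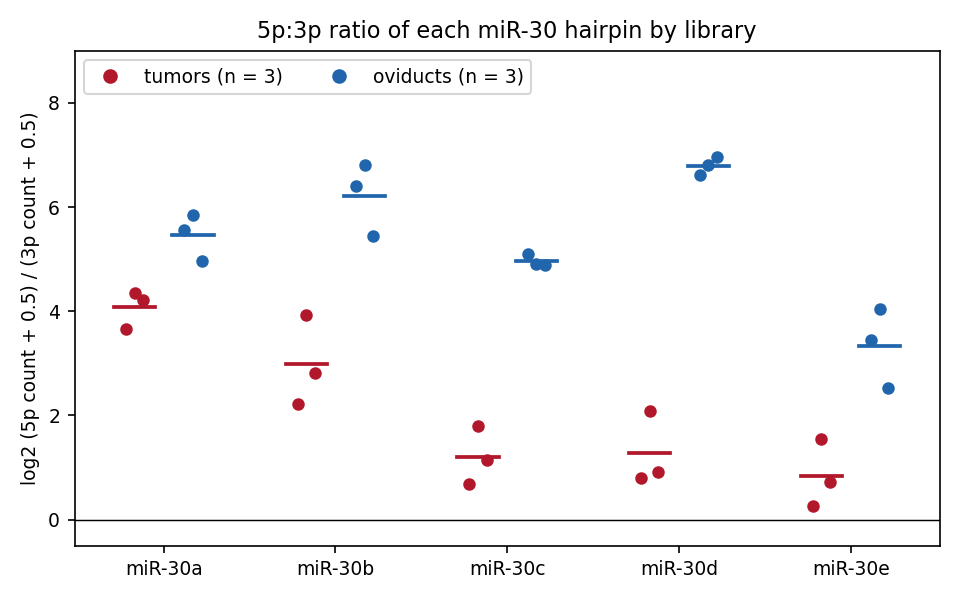
Log2 ratio of 5p to 3p counts of each hairpin, with 1 point per library and a bar at the group mean, tumors in red left of oviducts in blue (n = 3 each); a value of 0 means equal counts. Every tumor lies below every oviduct in each hairpin, and the gap is widest in miR-30d (-5.53) and narrowest in miR-30a (-1.38).

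The hairpins were then set against each other, in 10 pairs, by the difference of their log2 ratios in each library. A two-sided exact permutation test over 3 against 3 cannot go below p = 0.1, and 9 of the 10 pairs reached that value (adjusted p = 0.111 over the pairs). The change of miR-30a exceeded that of miR-30d by 4.14 (SE 0.44), that of miR-30c by 2.37 (SE 0.29), that of miR-30b by 1.84 (SE 0.36) and that of miR-30e by 1.11 (SE 0.28), on the log2 scale and in the direction of a smaller fall. Between the neighbours of chromosome 15 the change of miR-30b exceeded that of miR-30d by 2.30 (SE 0.50), again a smaller fall. The pair that overlapped was miR-30b and miR-30c, with a difference of 0.52 (SE 0.42, exact p = 0.3).

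The fourth comparison was of hairpin totals, the sum of both strands, tested with edgeR over 183 hairpins and names without an arm. Of the 5 totals 3 fell, those of miR-30a, miR-30c and miR-30d, where 17.5% of all tested totals fell, and miR-30b and miR-30e did not pass the test. The median log2 change of the 5 was -0.86, against 0.20 for all tested totals. These 5 totals are mostly 5p counts, as in miR-30a with 18692 5p and 414 3p counts over the oviducts. Their falls are therefore not a measurement separate from those of the 5p strands. All tested totals also include hairpins led by the 3p strand and names without an arm. Among tested 5p names 48.4% fell, with a median of -1.04. The total of miR-30a was 7777, 5242 and 7621 CPM in the tumors and 19440, 13556 and 18490 CPM in the oviducts (log2 -1.32, SE 0.27, edgeR adjusted p = 0.00581). That of miR-30c was 956, 1010 and 1416 CPM in the tumors and 2134, 2445 and 2326 CPM in the oviducts (log2 -1.03, SE 0.27, edgeR adjusted p = 0.0179). That of miR-30d was 3256, 5009 and 4569 CPM in the tumors and 7206, 8506 and 7655 CPM in the oviducts (log2 -0.86, SE 0.27, edgeR adjusted p = 0.0319). In these 3 the groups did not overlap, where 26.2% of all tested totals did so in that direction.

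The calls of totals changed with the libraries and the scaling. Without oviduct 1 only 1 total was called, that of miR-30a, since miR-30c (edgeR adjusted p = 0.0530) and miR-30d (0.0607) missed the threshold. The call of miR-30d also ended without oviduct 2 (0.0695) or oviduct 3 (0.0617) and with upper-quartile factors (0.0815), and that of miR-30c without tumor 2 (0.0700). With library totals alone edgeR called 0 lower, with 1 at an unadjusted p under 0.05, while DESeq2 with its own size factors called 3, and with TMM factors from 3p names all 5 were called. The total of miR-30e, cut from the same intron as miR-30c-1, was 1913, 2222 and 2562 CPM in the tumors and 4010, 3493 and 2338 CPM in the oviducts (log2 -0.56, SE 0.31, edgeR adjusted p = 0.168). The total of miR-30b was 448, 803 and 512 CPM in the tumors and 629, 682 and 786 CPM in the oviducts (log2 -0.25, SE 0.30, edgeR adjusted p = 0.491), and its direction turned with upper-quartile factors and with library totals alone.

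Over the whole family the 5p strands took 78.6%, 85.8% and 79.4% of the counts in tumors 1, 2 and 3 and 97.4%, 98.0% and 96.6% in oviducts 1, 2 and 3, with the 3p counts of both miR-30c copies included. The 10 members together held 0.939%, 1.86% and 2.42% of the mouse counts of the tumors and 2.99%, 2.86% and 2.70% of those of the oviducts. The lowest of these, in tumor 1, stood in the library with the highest share of miR-143-3p.

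The let-7, miR-26 and miR-29 families are given beside miR-30 as counts. Of the 9 5p strands of let-7 and miR-98, 5 fell, with log2 changes between -1.67 and 0.65 and a median of -0.91. Of their 5 tested 3p strands 2 rose, with a median of 1.09, and 7 of 9 hairpin ratios fell, with a median of -2.14. The 2 that rose, let-7a-1-3p and let-7c-2-3p, had identical values (log2 2.73 for both), so they are not separate measurements. Each also enters the ratio of its own hairpin. Both 5p strands of miR-26 fell, with a median of -1.52, both of its hairpin ratios fell, and its 3p names did not pass the low-count filter. In miR-29, whose usual guide is the 3p strand, 1 of 3 3p strands fell, with a median of -1.29, and neither tested hairpin ratio passed the test, with log2 changes between -0.13 and 1.00. Hairpin totals fell in 2 of 9 hairpins of let-7 and miR-98 (median -0.65), in both of miR-26 (median -1.40) and in 1 of 3 of miR-29 (median -1.18). Differences between these families and miR-30 were not tested.

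Among 177 names outside the family with at least 100 CPM in 1 group, the profile of the pooled 5p level over the 3 tumors was closest to those of let-7f-5p, miR-26b-5p and miR-99b-5p. The root mean square differences over the 3 tumors were 0.14, 0.17 and 0.18 on the log2 scale, each tumor being taken against the oviduct mean. The pooled 3p level was closest to miR-125b-2-3p (0.05), miR-25-3p (0.11) and miR-126a-3p (0.26). Among 137 other hairpins, the median ratio change of the family was closest to those of miR-106b (0.45), miR-335 (0.47) and let-7i (0.49). Over the oviducts, miR-106b had 39 5p and 53 3p counts, and miR-335 had 17 5p and 20 3p counts. For let-7i the 3p strand had 18 counts over the tumors and 7 over the oviducts. Such low counts limit this comparison.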

How the data were processed

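Per the labels' protocols, RNA came from a miRNeasy extraction and libraries from the Illumina TruSeq small RNA kit. The submitters' processing notes name cutadapt, and per the file headers the authors took the counts from BAM files of trimmed reads. The deposited table gives unscaled counts by mature microRNA name. No source used here states the aligner, counter, microRNA reference or build. Names of other species (67 names, 10 counts) were left out.

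R 4.3.3 was used. For edgeR 4.0.16, names were first filtered (filterByExpr, minimum count 10), followed by TMM factors on the names kept (227, at least 99.3% of the counts of every library) and the robust quasi-likelihood test. limma 3.58.1 served for ratios, in hairpins averaging 20 counts or more. Alternatives were each library left out in turn, a replicate block, DESeq2 1.42.0, and changes of scaling, filter and pseudocount. The members, lists and tests were chosen with earlier results of these data known. All members were named. Other names were miR-30c-2-3p, names with the 5p seed, and the 3 closest names or hairpins by root mean square difference of log2 values, with 1 CPM added to levels. Libraries within a group differed beyond sampling noise (chi-square per degree of freedom of at least 24.4). PCR copies are not independent molecules, so the intervals and floors speak for counting error alone. The tests were checked on simulated data, with planted changes larger than most of those found in the family. That check does not speak for changes as small as those of the 5p members. Loci came from GENCODE M21, and exact tests and figures used Python 3.11.15, scipy 1.17.1 and matplotlib 3.10.9.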

Additional observations from a re-analysis of the deposited data

How the results depend on the processing

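The 4 falls of hairpin ratios were 4 or 5 under every alternative, between 4 and 4 when a library was left out. The count of members called was 8, 4 with library totals alone, and between 6 and 8 when a library was left out. The count of 5p members called lower was 4 and 0 with library totals alone, and that of hairpin totals called lower was 3, with 0 with library totals alone, 2 under upper-quartile scaling, 5 with TMM factors from 3p names and between 1 and 3 when a library was left out (1 without oviduct 1). The log2 ratio of the pooled 5p level was -1.41, -0.95 with library totals alone and -2.30 with TMM factors from 3p names, and that of the pooled 3p level was 1.63, 2.08 and 0.75 under those settings in that order. Leaving out a library gave -1.49 to -1.31 for the pooled 5p level and 1.43 to 1.82 for the pooled 3p level. The level of a strand thus moved with the scaling, and the cause was not tested. Signs turned for miR-30a-3p (log2 0.042 with upper-quartile factors, 0.24 under library totals, and between -0.63 and 0.18 when a library was left out, positive without tumor 2), for miR-30b-5p (0.0058 under library totals) and for the miR-30b total (0.031 with upper-quartile factors, 0.13 under library totals), none of which was called. With the replicate number as a block 8 members, 4 ratios and 3 totals were called as before. The labels do not state whether equal numbers mark a pair, and the main tests did not pair the samples. Same-numbered tumors and oviducts had correlations of -0.07, 0.04 and -0.13 of their deviations from the group means across names. Deviations from means of only 3 libraries are tied to each other, so these values cannot decide whether the samples are paired. Shallow 3p strands, above all miR-30b-3p with 9 oviduct counts, limit the ratios.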
